A study of Mus musculus with 12 samples.

Results

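The genes for 5 peptide hormones of the anterior pituitary were followed across 12 libraries of ribosome-bound RNA from the mouse hypothalamus: Gh (growth hormone), Prl (prolactin), Tshb, Lhb and Fshb (the β subunits of thyrotropin, luteinizing hormone and follicle-stimulating hormone). They are 5 of the 5764 genes in the deposited table and were chosen by their CPM values in these 12 libraries, that is, by which libraries held which hormone. Their levels are therefore described below without a test. The mice were POMCRiboTag animals, which carry an epitope-tagged ribosomal protein in cells of the POMC (pro-opiomelanocortin) lineage. The driver of the tag is not given in the sources used here. All animals had been fasted for 16 h, then given 1 h to settle in the test room, and were housed in pairs or triplets. For 10 min, around zeitgeber time 6 h, they met either caged chow that could be seen and smelled but not eaten (SENS, 6 libraries) or caged wood sticks (NEO, the nonedible object, 6 libraries). Neither age nor sex is stated in the labels, and nothing in the labels ties each library to a separate mouse or cage, so the spread between libraries may be partly technical. RNA came from microdissected tissue enriched for the arcuate nucleus after pull-down with an anti-HA antibody, and neither unselected input RNA nor a pull-down from untagged mice was among the 12 libraries.

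The anterior pituitary holds specialised endocrine cells. Somatotrophs make growth hormone, lactotrophs prolactin and thyrotrophs thyrotropin, and these cell types share the transcription factor POU1F1. Gonadotrophs make both gonadotropins and depend on the factor SF-1 (NR5A1). Thyrotropin and the gonadotropins are dimers of a common α subunit (Cga) with a β subunit that gives each its identity. The pars tuberalis, a thin sleeve of the anterior pituitary, lies against the median eminence below the arcuate nucleus and contains melatonin-sensitive cells that make Tshb. Pomc is transcribed both in arcuate neurons and in pituitary corticotrophs and melanotrophs.

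The proximal promoters are shown because the lineage factors are known to act there, and because Prl and Tshb belong to one lineage and Lhb and Fshb to another. Each is the 250 bases before an annotated transcription start in RefSeq (GRCm38.p6), written 5′ to 3′ on the gene's strand. RefSeq promoters matched 4 of the 5 genes. Capitals mark matches on either strand to 5 motifs, and overlapping matches run together. POU1F1 was searched for as ATGNATA. Transcription factors of the zinc finger family that includes GATA2 were searched for as AGATAA. For SF-1 the letters were AAGGNCA. For EGR1, which gonadotropin-releasing hormone induces, they were CGCCCCC. The TATA box was written TATAAA. The PITX motif, searched for as TAATCC, matched none of the 4 windows (6.25% of windows hold it). The windows are chr13:27057320-27057569 (+) for Prl, chr3:102782715-102782964 (−) for Tshb, chr7:45420696-45420945 (+) for Lhb and chr2:107059652-107059901 (−) for Fshb. Those of Prl and Fshb adjoin the annotated gene span. Those of Tshb and Lhb lie inside it, and the bases before the outermost 5′ end of these genes were not searched.
Prl: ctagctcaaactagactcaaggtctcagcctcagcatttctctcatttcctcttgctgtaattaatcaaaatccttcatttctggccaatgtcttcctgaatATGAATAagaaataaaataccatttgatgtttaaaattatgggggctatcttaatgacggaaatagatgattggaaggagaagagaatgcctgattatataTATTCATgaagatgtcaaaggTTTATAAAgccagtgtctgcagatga
Tshb: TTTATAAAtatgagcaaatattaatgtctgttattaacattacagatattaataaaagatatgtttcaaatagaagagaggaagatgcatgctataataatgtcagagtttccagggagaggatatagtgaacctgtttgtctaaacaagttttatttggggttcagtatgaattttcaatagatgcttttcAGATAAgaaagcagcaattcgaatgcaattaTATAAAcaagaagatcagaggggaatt
Lhb: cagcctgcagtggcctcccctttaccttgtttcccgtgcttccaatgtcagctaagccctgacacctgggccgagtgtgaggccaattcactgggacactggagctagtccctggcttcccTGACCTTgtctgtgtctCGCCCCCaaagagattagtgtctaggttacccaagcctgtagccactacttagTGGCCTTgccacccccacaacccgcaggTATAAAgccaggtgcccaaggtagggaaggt
Fshb: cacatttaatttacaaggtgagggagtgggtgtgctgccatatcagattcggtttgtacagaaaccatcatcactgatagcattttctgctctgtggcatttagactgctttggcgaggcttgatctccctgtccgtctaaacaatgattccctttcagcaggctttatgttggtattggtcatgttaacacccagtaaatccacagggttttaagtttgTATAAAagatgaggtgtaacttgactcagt
The Prl window held the POU1F1 letters at 148 to 142 bases before the start and, on the other strand, at 47 to 41 bases. They occur in 7.93% of the 32817 promoter windows of the same length. The Tshb window held the GATA letters at 58 to 53 bases (9.99% of windows). In the Lhb window the SF-1 letters lay at 129 to 123 and at 59 to 53 bases, both on the other strand, with the EGR1 letters at 112 to 106 bases between them (17.5% and 14.8% of windows). The Fshb window held only the TATA box, at 30 to 25 bases before the start, and a TATA box occurred in 12.4% of windows. A match describes letters and no binding, and a missing match says only that these letters are not in this window.

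All values are CPM as deposited, read counts scaled to a common total in each library, here the total over the genes of the table. A level is therefore relative to these 5764 genes alone, which had a median of 9 reads each over the 12 libraries, and a high CPM can rest on few reads. How genes entered the table is not stated, so a gene missing from it says nothing about its expression. Those genes held 6901 to 11139 reads in a NEO library and 8619 to 18299 in a SENS library, so 1 read was worth 54.6 to 145 CPM. Where a library had no read of a gene, up to 3 reads remain possible, which was 164 to 435 CPM. Intervals below are exact 95% Poisson limits. They cover counting error only, since reads from amplified cDNA without molecular identifiers are not independent molecules. The labelled cell type could not be checked: the markers listed for POMC neurons (10 genes, among them Pomc and Cartpt), like Cga, are not analysed here. All 27 hormone gene values above 0 (of 60) were whole reads within a tolerance of 0.005 reads, with no fractional read. Levels are not compared between genes, since transcript lengths were not used here.

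Growth hormone and prolactin transcripts were found almost entirely in 1 library, SENS 4. Prl, the lactotroph hormone (chromosome 13, 27057570 to 27065204), had 52 reads in SENS 4, 1 read in SENS 5 and none in the remaining 10 libraries. In CPM this was 4842 (3616 to 6350) in SENS 4 and 83.1 in SENS 5. Gh, the somatotroph hormone (chromosome 11, 106300261 to 106303703), had 33 reads in SENS 4, 2 in NEO 5 and 1 in NEO 6, and none in the other 9. Its level was 3073 CPM (2115 to 4315) in SENS 4, 290 CPM in NEO 5 and 129 CPM in NEO 6. SENS 4 thus held 98.1% of Prl reads (exact Clopper-Pearson interval 89.9 to 99.95%) and 91.7% of Gh reads (77.5 to 98.2%), while it held 8.28% of all reads of the table. It was picked as the library with most reads of these genes, so the intervals describe counting error and test nothing. The NEO and SENS ranges overlapped for both genes, because the other SENS libraries were at or near 0.

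Tshb, the thyrotroph hormone subunit (chromosome 3, 102777398 to 102789082), was high in 3 libraries from both groups. It had 31 reads in SENS 3, 15 in SENS 4 and 9 in NEO 3, which was 2324 CPM (1579 to 3299), 1397 CPM (782 to 2304) and 1259 CPM (575 to 2389). The Poisson limits of these 3 levels overlap one another. NEO 2 had 2 reads and NEO 1, NEO 5, NEO 6 and SENS 6 had 1 each, between 54.6 and 180 CPM, and NEO 4, SENS 1, SENS 2 and SENS 5 had none. Each of these 9 lower libraries lay at or below the level of 2 reads. The 3 high libraries together held 55 of 61 Tshb reads (90.2%), against 24.1% of all reads of the table.

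The gonadotropin β subunits did not share a pattern. Fshb, which gonadotrophs need to make follicle-stimulating hormone (chromosome 2, 107055986 to 107059651), had 10 reads in NEO 3, 10 in SENS 3 and none in any other library. Its level was 1398 CPM (671 to 2572) in NEO 3 and 749.7 CPM (360 to 1379) in SENS 3. Lhb, the other gonadotroph subunit (chromosome 7, 45417608 to 45421855), was above 0 in all 12 libraries. NEO libraries 1 to 6 had 3, 10, 1, 3, 1 and 4 Lhb reads and SENS libraries 1 to 6 had 7, 1, 7, 5, 5 and 21. In CPM, Lhb ran from 140 (NEO 3) to 898 (NEO 2) with a median of 337 in NEO, and from 64.1 (SENS 2) to 1148 (SENS 6) with a median of 495 in SENS. NEO 3, the library with the highest Fshb, had 1 read of Lhb, as few as any NEO library. Of 1992 genes with at least 20 reads, 216 (10.8%) were above 0 in every library, so this breadth is not rare in the table.

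**Figure D1:**
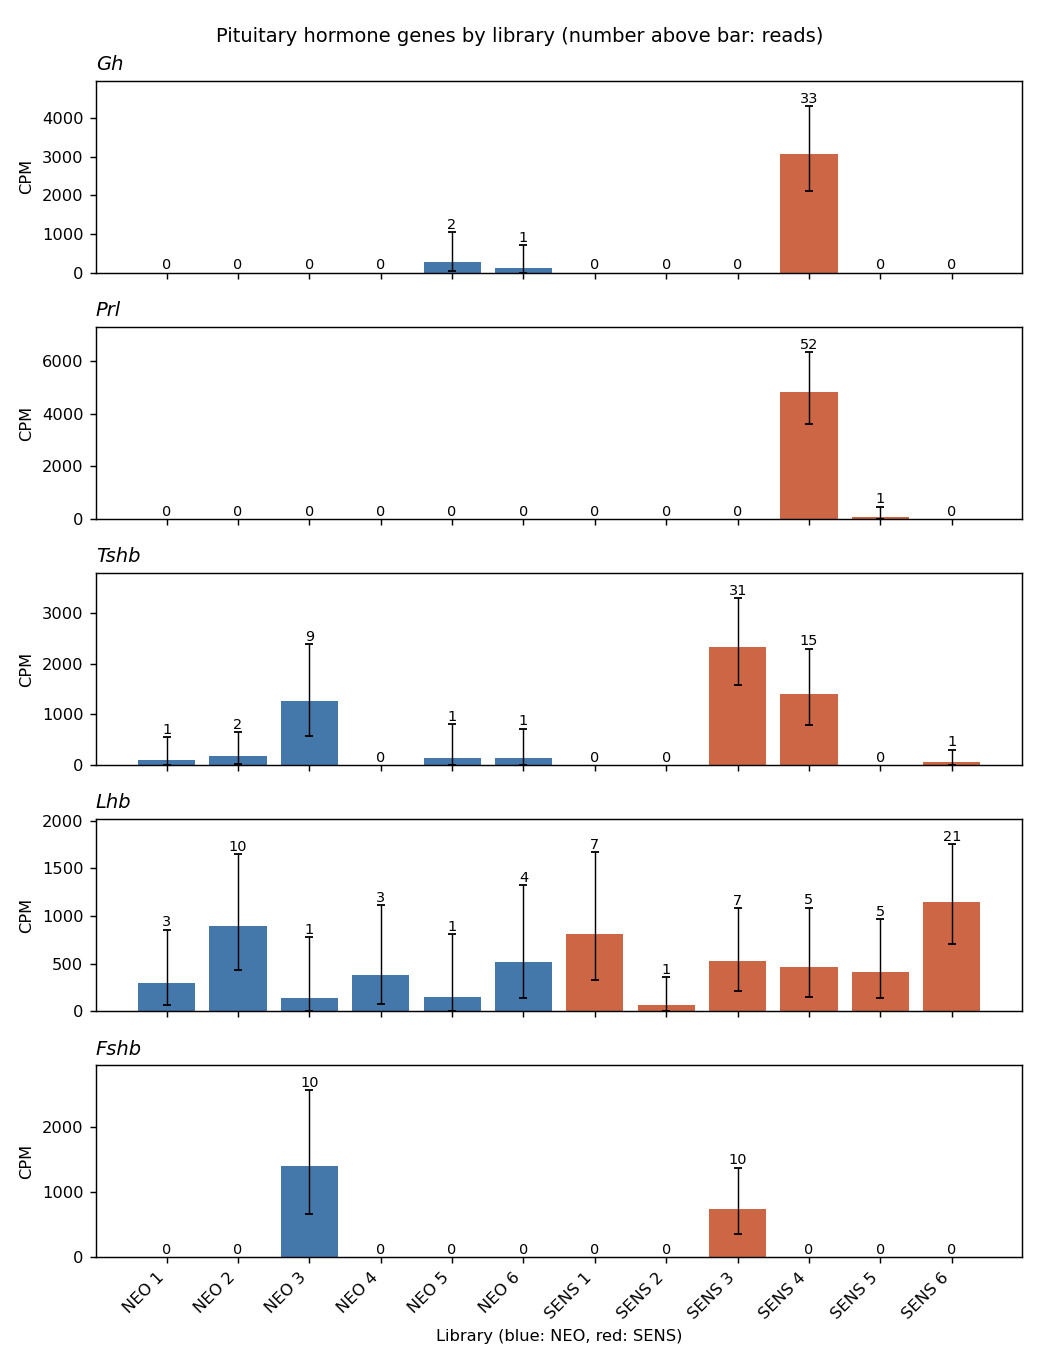
Level of each hormone gene in each library, in CPM on a linear axis from 0 (bars; blue NEO, red SENS), with exact 95% Poisson limits where reads were found and the number of reads printed above. Prl and Gh stand in SENS 4 with 52 and 33 reads, Fshb in NEO 3 and SENS 3 with 10 each, Tshb in all 3 of these libraries, and Lhb in every library.

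Counted by library, SENS 4 held 4 of the 5 hormone genes with 105 reads, SENS 3 held 3 with 48 reads and NEO 3 held 3 with 20 reads. Without Lhb, these 3 libraries held 160 of 170 hormone reads (94.1%), and the other 9 had between 0 and 3 each. Reads in the table did not follow this order: SENS 6, the library with the most (18299), had 1 read of Tshb and none of Gh, Prl or Fshb, while NEO 3 had 7151, the second lowest number. The number in each library's label fell into 3 ranges, and NEO 3, SENS 3 and SENS 4 (1065, 1068 and 1070) all lay in the range 1062 to 1074, which has 3 NEO and 3 SENS libraries. That range held 100% of Fshb reads, 98.1% of Prl, 93.4% of Tshb, 91.7% of Gh and 39.7% of Lhb, against 50.8% of all reads of the table. Its remaining libraries, NEO 2, NEO 4 and SENS 2, had 2, 0 and 0 hormone reads without Lhb, so the pattern did not extend over the whole range. What the label numbers stand for is not given in the sources used here, and their part in the pattern was not tested.

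SENS 4 was the 1 library with reads of both Gh and Prl. Over the 12 libraries Gh and Prl had a Pearson r of 0.57 on log2(CPM + 1) (Spearman rho 0.39), and r was −0.15 without SENS 4 and −0.11 without the 2 libraries farthest from the median of Gh. At a pseudocount of 100 CPM, about the worth of 1 read, r was 0.89. Tshb and Fshb had r = 0.56 (rho 0.58), and r lay between 0.42 and 0.65 when each library was left out in turn. Without the 2 libraries farthest from the median of Tshb, r was 0.55. For Gh that rule left out SENS 4, but for Tshb it left out 2 libraries at 0 and kept both libraries with Fshb reads. With both of those left out, Fshb is at 0 throughout and r is undefined, so whether r holds without them cannot be tested. Tshb was above 0 in the Gh- and Prl-rich library and in both Fshb libraries, but Gh and Prl were at 0 in both Fshb libraries and Fshb was at 0 in SENS 4. Lhb had r between −0.19 and 0.10 with the other 4 genes. These values describe 12 points that share preparation and low counts, most of them at 0, and with libraries so unlike one another no p-value is attached.

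**Figure D2:**
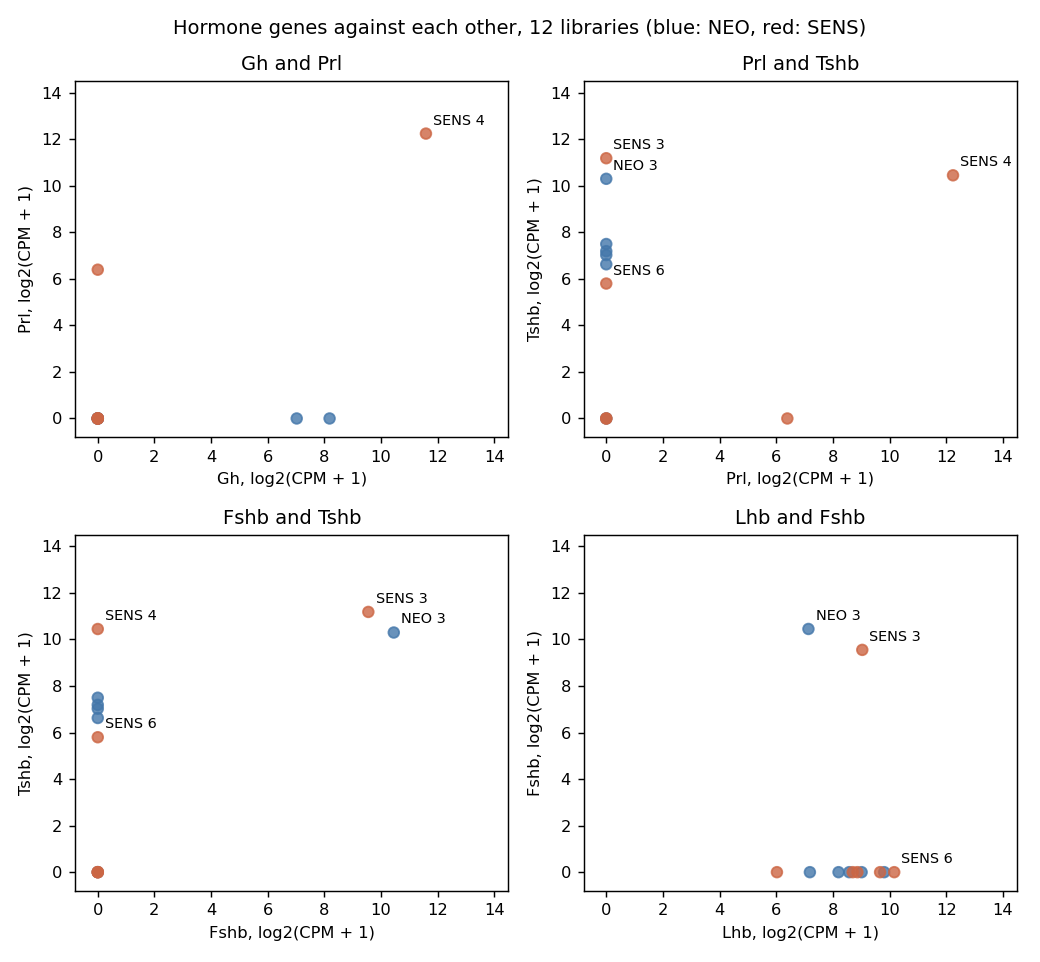
Each point is 1 library (blue NEO, red SENS) with the log2(CPM + 1) of 2 hormone genes on its axes, and libraries at 0 on both lie on top of each other at the origin. SENS 4 alone is high in both Gh and Prl, NEO 3 and SENS 3 are high in both Tshb and Fshb, and SENS 4 is high in Tshb with Fshb at 0.

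A gene with nearly all its reads in 1 library was uncommon in this table but not confined to the pituitary genes. Of 1992 genes with at least 20 reads, 40 (2.01%) had at least 90% of them in 1 library. Of those 40, SENS 6 held 21, SENS 2 held 10, SENS 1 held 6, NEO 4 held 1 and SENS 4 held 2, namely Gh and Prl. From 10 reads upward SENS 4 held 8 such genes, and from 30 reads upward again Gh and Prl alone. The median gene with at least 20 reads had 31.6% of them in its top library and was above 0 in 8 libraries. Tshb had 50.8% of its reads in SENS 3, Fshb 50% in NEO 3 and Lhb 30.9% in SENS 6. Since the hormone genes were picked with these levels known, the shares are read as descriptions only.

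**Figure D3:**
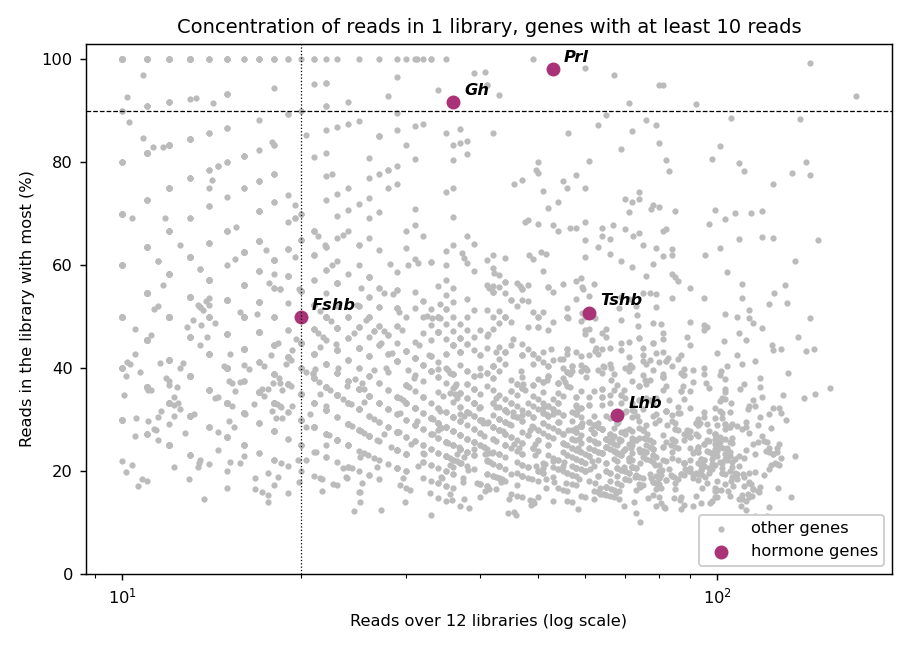
Each point is a gene with at least 10 reads over the 12 libraries, placed by its reads (log axis) and by the percent of them in the library with most. Dashed and dotted lines mark 90% and 20 reads. Prl (98.1%) and Gh (91.7%) lie above the 90% line, and Tshb, Fshb and Lhb lie well below it.

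The comparison of SENS with NEO asks whether food perception changes ribosome-bound transcripts. Of 5141 genes tested in limma, 0 (0%) had an adjusted p below 0.05, and 189 were below 0.05 before adjustment. None of the 5 hormone genes had groups that did not overlap, which 5 of the 5141 genes had (0.0973%). Prl had 0 of 51054 reads in NEO and 53 of 78624 in SENS. Its pooled SENS level was 674 CPM, with 52 of the 53 reads in SENS 4. In NEO, 3 reads over the group would give 58.8 CPM. Without SENS 4 Prl had 1 read in SENS, so no fold difference between the groups is given. Mean Prl was 821 ± 1970 CPM in SENS (SD, n = 6), and 16.6 ± 37.1 CPM without SENS 4 (n = 5). Mean Gh was 512 ± 1254 CPM in SENS against 69.8 ± 120 CPM in NEO (SD, n = 6 each), and Gh had no reads in SENS without SENS 4.

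Tshb averaged 629 ± 998 CPM in SENS against 302 ± 473 CPM in NEO (SD, n = 6 each). Without NEO 3 the NEO mean was 110 ± 68.3 CPM (n = 5), and without SENS 3 the SENS mean was 290 ± 619 CPM (n = 5). With NEO 3, SENS 3 and SENS 4 all left out, 5 Tshb reads remained in 5 NEO libraries and 1 in 4 SENS libraries. Fshb averaged 233 ± 571 CPM in NEO and 125 ± 306 CPM in SENS, each from 1 library. Lhb averaged 395 ± 285 CPM in NEO and 572 ± 370 CPM in SENS. On the log2(CPM + 1) scale the difference of SENS from NEO was 3.11 (SE 1.85) for Prl, −0.60 (SE 2.25) for Gh, −1.87 (SE 2.51) for Tshb, 0.42 (SE 1.05) for Lhb and −0.15 (SE 1.94) for Fshb, beside a median of 0.39 over all genes tested. The Prl value rests on SENS 4, and without that library it was 1.28 (SE 1.31). For Gh and Tshb this sign is opposite to that of the mean CPM, since the log scale weighs how many libraries are above 0 (2 in NEO and 1 in SENS for Gh, 5 and 3 for Tshb). Within the range of label numbers from 1062 to 1074 (3 libraries a group) Tshb was 761 CPM higher in SENS, and within the range from 1103 to 1116 (2 a group) the SENS minus NEO difference was −110 CPM. For Lhb these differences were −121 and 451 CPM. In the range from 1046 to 1050 (1 library a group) the difference was −97.7 CPM for Tshb and 519 CPM for Lhb.

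Of 38 further pituitary genes listed (lineage factors, receptors and secretory proteins), the table held 8, and 7 were above 0, with 26.2 reads in NEO and 25.2 in SENS. The others are not analysed here, so the values below describe these few genes and not the pituitary as a whole. Their summed level was 0 CPM in NEO 3, 330 CPM in SENS 3 and 18.6 CPM in SENS 4, and 0 to 1740 CPM (median 293) in the other 9 libraries. Ghrhr, the receptor through which hypothalamic growth hormone-releasing hormone drives somatotrophs, had 4 reads in NEO 2, 6 in NEO 4, 5 in SENS 1 and 2 in SENS 5, and none in SENS 4. Gnrhr, the receptor of gonadotrophs for gonadotropin-releasing hormone, had 10 reads, all in NEO 2. Fshb was at 0 in that library, while Lhb had 10 reads there, the most of any NEO library. Neurod4, a transcription factor of the developing pituitary and of neurons, had 10 reads in SENS 1 and 2 in NEO 5. Hesx1, an early pituitary and forebrain factor, had its 4 reads in SENS 3, and Pax7, a melanotroph factor, had 3 in NEO 1 and 1 in NEO 2. Pou1f1, the factor shared by the somatotroph, lactotroph and thyrotroph lineages, had at most 0.4 of a read in a library and 1.4 in all. Mc2r, the adrenal receptor for corticotropin, had 3 reads in SENS 2, and Lhx4 had none. The summed level was 415 ± 660 CPM in SENS against 453 ± 519 CPM in NEO (SD, n = 6 each), and a two-sided exact permutation test over all regroupings of the libraries gave p = 0.898. Within the 3 ranges of label numbers the SENS minus NEO difference was 1447, −522 and −54.3 CPM. Of the 7 genes tested, 0 passed in limma, beside 0 of the 5141 genes tested over the whole table. Of the 7, 4 were higher and 3 lower in SENS, with a median log2 difference of 0.33 beside 0.39 over all genes.

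The remaining glycoprotein hormone subunits in the table, Gpha2 and Gphb5, were sparse as well, while Cga is not analysed here. Gpha2, the α subunit of thyrostimulin, had 11 reads in NEO 3, 10 in SENS 6 and 1 in NEO 2. In CPM this was 1538 in NEO 3 and 546 in SENS 6. SENS 3, which like NEO 3 held Fshb and Tshb, had no Gpha2 read. Gphb5, the partner of Gpha2, had 1 read, in NEO 2. Among markers of the pars tuberalis and posterior lobe, 2 of 10 were in the table. Mtnr1a, the melatonin receptor of pars tuberalis cells, had 63 reads in 7 libraries, 40 of them in SENS 6, and none in NEO 3, SENS 3 or SENS 4, where Tshb was high. Vmo1 was above 0 in all 12 libraries, with 34 of 82 reads in SENS 6. Neither passed in limma (adjusted p = 0.968 and 0.905), and no other gene of the table did.

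Of 18 genes of hypothalamic releasing factors and related peptides, 3 were in the table. Gnrh1, which encodes gonadotropin-releasing hormone, had 148 reads in 9 libraries, 96 of them in SENS 6, the library with the most Lhb. Gnrh1 had 15 reads in SENS 4, 7 in SENS 3 and 6 in NEO 3. Cort, which encodes the somatostatin-like peptide cortistatin, had 44 reads in SENS, of which SENS 6 held 26, and 3 in NEO. Its log2 difference was 4.59 (SE 2.67, limma adjusted p = 0.745). Ghrl, the ghrelin gene, had 13 reads in 4 libraries. Of 17 receptors for such factors, the table held Ghrhr, Gnrhr and Trhr2, a receptor for thyrotropin-releasing hormone, which had 22 reads in SENS against 7 in NEO (limma adjusted p = 0.745). Of 5 receptors for the pituitary hormones themselves, it held Lhcgr, the receptor for luteinizing hormone, with 66 reads in SENS against 38 in NEO. Its mean was 779 ± 615 CPM in SENS against 725 ± 874 CPM in NEO (SD, n = 6 each, limma adjusted p = 0.745). Of 12 genes of the activin and inhibin system, which sets Fshb transcription, 2 were in the table. Inhbc had 11 reads, 7 of them in NEO 4, and the activin antagonist gene Fstl3 had 79 reads over all 12 libraries (limma adjusted p = 0.817 and 0.947). In none of these lists did a gene pass the test.

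**Figure D4:**
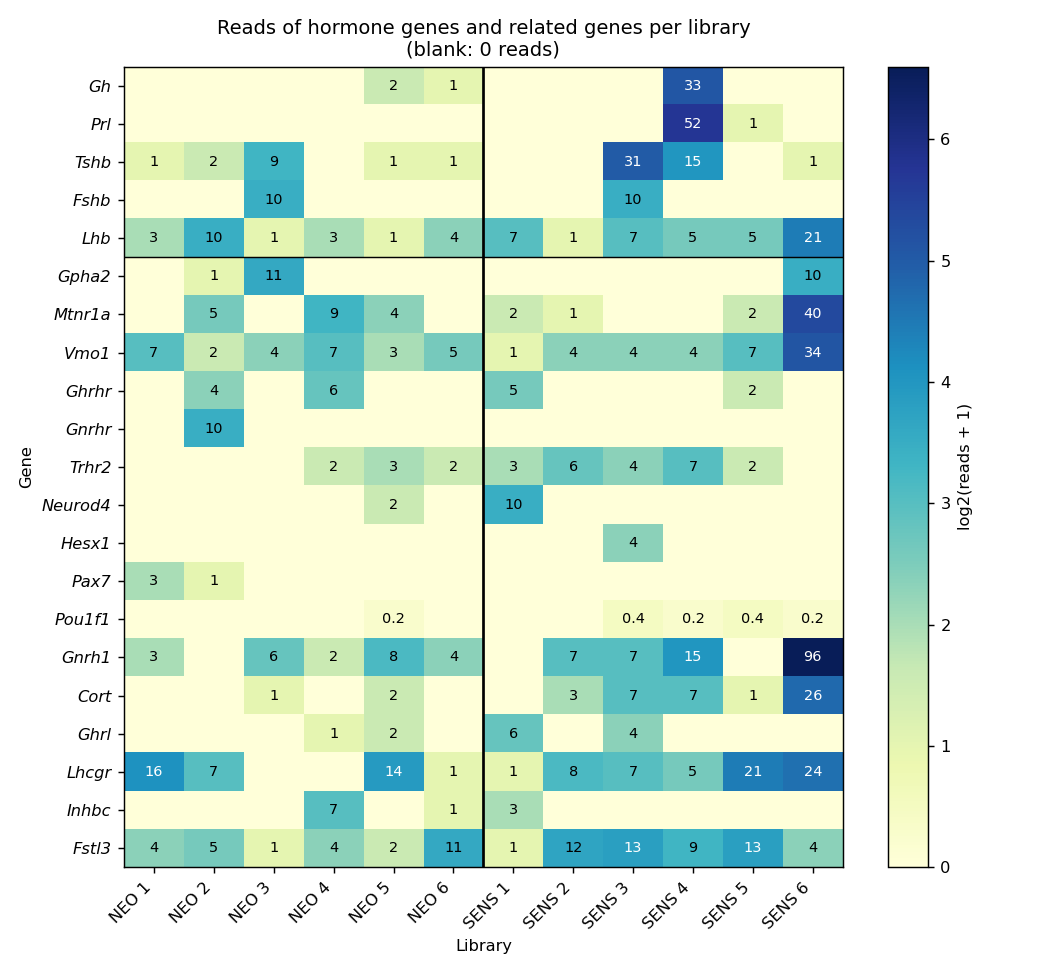
Reads of the 5 hormone genes (above the horizontal line) and of related genes (below it) in each library, with NEO left and SENS right of the vertical line, coloured by log2(reads + 1) and left blank at 0. The columns of SENS 4, SENS 3 and NEO 3 stand out for the hormones, while SENS 6 stands out for Gnrh1 (96 reads), Mtnr1a (40) and Vmo1 (34).

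Markers of other cells that could come with the dissection were compared in the same libraries. Of 12 blood cell markers 8 were in the table, and their summed level was 1119 CPM in NEO 3, 4536 CPM in SENS 3 and 2142 CPM in SENS 4, inside the range of 635 to 4817 CPM of the other 9 libraries. Over groups the summed level ran from 635 to 2681 CPM in NEO and from 1585 to 4817 CPM in SENS. The leading genes were Ptprc, a leukocyte marker, with 129 reads and Cd52, of lymphocytes, with 115, and the haemoglobin gene Hba-a1 had 1 read, in NEO 4. The part of blood cells in the pattern was not tested. Of 8 choroid plexus markers the table held Aqp1, a water channel, with 35 reads, none of them in NEO 3 or SENS 4 and 3 in SENS 3. The lists for tanycytes and ependyma (12 genes) and for meninges and vessels (13 genes) are not analysed here. In bulk RNA of this kind, fewer cells of a type and less RNA per cell cannot be told apart.

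None of the 5 hormone genes overlaps another annotated gene in RefSeq GRCm38.p6. Lhb lies closest to a neighbour: 40 bases separate it from Ruvbl2, which is not analysed here, and 428 bases from Ntf5, a neurotrophin gene. Ntf5 had 7 reads in 3 libraries, and its level did not follow that of Lhb (r = 0.10 over 12 libraries). Since the use of strand is not given in the sources used here, Lhb reads from an extended neighbouring transcript could not be told apart. Near Gh the table held Tcam1 with 49 reads, 8 of them in SENS 4, and the B cell gene Cd79b and the sodium channel gene Scn4a, both at 0 in SENS 4. Near Tshb it held Tspan2os, with 1 read in SENS 3 and none in SENS 4, and Sycp1, at 0 in both. The other neighbours of Lhb in the table were Hrc, a calcium-binding protein of muscle, with 32 reads, 21 of them in SENS 6, and Tulp2 with 59. Prl and Fshb had no neighbour in the table within 100 kb.

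The genes most like each hormone gene were sought among 1980 named genes with at least 10 reads, by Pearson r of log2(CPM + 1) over the 12 libraries. For Gh these were Ccdc201 (r = 0.98), Tafa3 (0.87) and Apol7e (0.82), with 8, 15 and 9.17 reads in SENS 4. For Prl they were Slc6a2, the noradrenaline transporter gene (r = 0.94), with 8.2 reads in SENS 4 and 10.2 in SENS 5, and Mybpc1 and Cngb3 (0.88 each), with 10 reads each, all in SENS 4. Gimap3, Arhgap8 and Cd86 were most like Tshb (0.84, 0.82 and 0.78), and Dpep1, Ces2g and Gal3st2 were most like Fshb (0.89, 0.82 and 0.80), led by Dpep1 with 6 reads in NEO 3 and 29 in SENS 3. Tomm20l, Vmn2r84 and the olfactory marker gene Omp were most like Lhb (0.83, 0.80 and 0.79). No hormone gene was among the 3 genes most like another: Prl ranked 72 for Gh and Gh 62 for Prl, and Fshb ranked 85 for Tshb and Tshb 58 for Fshb, each among 2736 genes. These likenesses are descriptions over 12 sparse libraries and carry no p-value.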

How the data were processed

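RNA bound to tagged ribosomes was sequenced in 6 NEO and 6 SENS libraries, grouped by their titles. Per the labels' protocols, cDNA was made from 0.5 ng of RNA with the SMARTer Ultra Low Input kit, libraries were tagmented with Nextera XT, and RNA integrity numbers were above 8. The authors deposited 1 table of CPM values, whose columns sum to 999936 to 1000000 over 5764 genes. Per the submitters' processing notes, the tools were FastQC, HISAT2, featureCounts and edgeR and the builds GRCm38 and mm10, with no version. How genes were filtered and how strand and multiply mapped reads were treated is not given in the sources used here.

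The most frequent value above 0 in a column was taken as 1 read. On that scale 81.2% of values above 0 were whole (tolerance 0.005 reads), so no count model was fitted, and fractional reads are reported as such. SENS was compared with NEO by limma 3.58.1 (R 4.3.3) with a variance trend on log2(CPM + 1), two-sided, over the 5141 genes whose mean reached 1 CPM, with Benjamini-Hochberg adjustment at 0.05. The fit was tested on simulated data, where, with the wider of the spreads between libraries that were tried, it left most of the smaller changes uncalled. The summed level of other pituitary genes was compared by exact permutation. Alternatives were other pseudocounts, filters, variance models, blocks and scaling, and each library left out.

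Named genes were the 5 hormone genes, measured genes of the pituitary, releasing factor, receptor and activin lists (values from 5 reads), up to 3 genes of each other list, genes within 100 kb of a hormone gene, and the 3 genes most like each. Gpha2 and the fewer-read genes Pax7, Hesx1, Mc2r, Pou1f1 and Gphb5 are given to account for their lists. The hormone genes and lists were chosen with earlier results of these data known. RefSeq (GRCm38.p6) gave positions and promoters, with all 5 hormone genes matched by symbol. Computations used Python 3.11.15 and scipy 1.17.1.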

Additional observations from a re-analysis of the deposited data

Results flagged for a closer look

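In groups of 6 libraries, the gap between the extreme library and its nearest neighbour was divided by the range of the group, and values above 0.625 (Dixon's 95% limit) were listed. The hormone genes were left out, since they were chosen by these same values. Chance lists about 1 in 20 groups where values are normally distributed. Here 13 of 29 were listed, in skewed data where many libraries are at 0, so that rate does not apply. A ratio of 1 means that 1 library of the group had reads and the other 5 had none.

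The summed level of other pituitary genes had 0.816 in SENS (SENS 1), where Neurod4 (1) and Ghrhr (0.714) stood highest in the same library. In NEO, Gnrhr had a ratio of 1 (NEO 2), Neurod4 1 (NEO 5), Gpha2 0.942 (NEO 3), Inhbc 0.855 (NEO 4) and Fstl3 0.713 (NEO 6). In SENS, Inhbc had 1 (SENS 1), and SENS 6 was the extreme library for Gpha2 (1), Mtnr1a (0.894), Gnrh1 (0.734) and Vmo1 (0.733).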

How the results depend on the processing

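No gene was called under any of the 21 alternatives to the limma fit, the replicate block included (0 genes called, as in the fit without it). The replicate numbers did not pair the libraries: deviations of same-numbered libraries correlated at −0.032 to 0.082, and 2 of 12 libraries correlated best with their own number. The summed level of other pituitary genes differed by −38.0 CPM (SENS minus NEO, exact permutation p = 0.898). With the replicate block, by exact sign flips over pairs, p was 0.938, and it was 0.933 within label number ranges. The sign turned with upper-quartile scaling (50.3 CPM) and as a mean of log2(CPM + 1) (0.10), and leaving out each library gave −303 (without SENS 1) to 141 CPM (without NEO 2), with no p under 0.05, so no direction can be given. The median log2 difference of all genes was 0.39, and 0.51 with upper-quartile scaling.

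The log2 difference of Lhb stayed above 0 (0.14 to 0.97) in all 21 alternatives. That of Prl did too (1.08 to 4.21), but NEO had no Prl read, so the sign could not turn in any of them. The sign for Gh turned in 3 (without NEO 5 or NEO 6, and with a pseudocount of 100 CPM), for Tshb in 1 (0.069 at a pseudocount of 100 CPM), and for Fshb in 6, all of them with a library left out. With the other filters, without the variance trend and with the blocks, the difference of each hormone gene equalled that of the main fit. Those settings change only its error, so no sign could turn in them. Since the genes were chosen by these values, the counts of signs are descriptions only. Prl without SENS 4 was 1.28, which rests on 1 read in SENS 5. The number of genes with at least 90% of reads in 1 library was 110 from 10 reads upward, 40 from 20 and 23 from 30; the other 2 limits, like leaving out the libraries rich in hormone reads, were chosen after the data were seen. At 54.6 to 145 CPM per read, a level under 3 reads cannot be told from 0 in these libraries.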

Other observations

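Prolactin has a large family of placental relatives, of which Prl6a1 and Prl2c2 were in the table and the others are not analysed here. Prl6a1 had 1 read in NEO 3, 1 in SENS 3 and 5 in SENS 5, and Prl2c2 had none. Neither had a read in SENS 4, where Prl had 52.

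SENS 6 had the highest level of several genes listed here: Gnrh1 at 5246 CPM, Mtnr1a at 2186 CPM, Vmo1 at 1858 CPM and Lhb at 1148 CPM, each above the other 11 libraries. Fshb, Gh and Prl were at 0 in that library. SENS 6 had the most reads in the table (18299) but 1589 genes above 0. The other SENS libraries had 2024 to 2402 genes above 0, and the NEO libraries 1419 to 2211. Whether the high levels in SENS 6 share a source was not tested.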
